A study of Mus musculus with 4 samples.

Results

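Tnni1, Htra3, Klhdc2, Igfbp4, Ecm1, Gcsam, Nrgn, Tsc22d1 and Atp1b1 are 9 of the 31053 genes counted in single thymic invariant natural killer T (iNKT) cells of C57BL/6 and Hivep3-/- mice. They were chosen because they lead a group of cells that is enlarged in the knockout, so their levels in that group and their differences between genotypes are given below as descriptions. Where the calls of a model over all genes are counted for them, the count stands beside the share of all genes called and nothing is read from it. PBS57-CD1d tetramer-positive thymocytes were sorted from untreated mice of 8 to 9 weeks, 2 wild type C57BL/6 and 2 Hivep3-/- mice on the C57BL/6 strain, and each library came from 1 mouse. Equal parts of CD44low and CD44high cells were mixed, which enriches early cells and sets part of each share of cells given here. Transcripts were counted as unique molecular identifiers (UMIs) with droplet chemistry that reads the 5′ end. The Hivep3-/- mice lack the gene in all cells. These libraries therefore cannot tell effects within iNKT cells from those of their surroundings. The study reports, from mixed bone marrow chimeras, that the loss of iNKT cells was cell-intrinsic.

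iNKT cells are selected in the thymus by CD1d on other thymocytes, pass a CD24-high stage 0, divide, and settle into effector subsets. The iNKT1 cells use T-bet and make interferon-gamma, iNKT2 cells make interleukin 4, and iNKT17 cells use RORγt. Hivep3 encodes a large zinc finger protein that acts as a transcription factor and adaptor. The 9 genes belong to no single pathway. Tnni1 encodes the troponin I of slow skeletal muscle and Atp1b1 the beta subunit of the sodium-potassium pump. Htra3 is a secreted serine protease, Igfbp4 a secreted protein that binds insulin-like growth factors, and Ecm1 a secreted matrix protein. Inside the cell, Klhdc2 is the receptor by which a cullin-2 ubiquitin ligase recognises certain protein C-termini, Nrgn (neurogranin) holds calmodulin, Gcsam is a signalling and motility adaptor of germinal centre B cells, and Tsc22d1 is a leucine zipper protein induced by TGF-beta.

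The genes lie apart from each other. In GENCODE vM21 on GRCm38, Tnni1 lies at chr1:135779434-135810989 and Atp1b1 at chr1:164437109-164458355, Ecm1 at chr3:95734147-95739569, Htra3 at chr5:35652023-35679782 and Nrgn at chr9:37544492-37552904. Igfbp4 lies at chr11:99041244-99054392, Klhdc2 at chr12:69296681-69310687, Tsc22d1 at chr14:76414961-76507765 and Gcsam at chr16:45610380-45622867. Klhdc2 overlaps Nemf, and Atp1b1 overlaps Nme7, on the opposite strand. Neither neighbour passed the test between genotypes in any class of cells tested below.

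The sequences just upstream of the start are shown for Tnni1 and Htra3, which lead the enlarged group, for Klhdc2, whose share in cycling-like Hivep3-/- cells differed most between cells with and without Tnni1, and for Nrgn, which had the opposite difference in the enlarged group. They are RefSeq promoter sequences of GRCm38.p6, 5′ to 3′ on the strand of the gene, up to 250 bases with annotated exons left out. Capitals mark the motifs searched, which were GCGTGGGCG and GCGGGGGCG (EGR type), CANNTG (E-box), TGTGGT (RUNX type), TATAAA and TGANTCA (AP-1 type) on both strands, and the NF-kB motif by name. E-boxes are bound by factors such as HEB, which iNKT cells need.
Tnni1, chr1:135799171-135799401, plus strand: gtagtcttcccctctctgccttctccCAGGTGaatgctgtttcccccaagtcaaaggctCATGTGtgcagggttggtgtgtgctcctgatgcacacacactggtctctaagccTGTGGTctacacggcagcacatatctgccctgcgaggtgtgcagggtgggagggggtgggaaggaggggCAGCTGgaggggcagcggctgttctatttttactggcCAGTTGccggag
Htra3, chr5:35679783-35680030, minus strand: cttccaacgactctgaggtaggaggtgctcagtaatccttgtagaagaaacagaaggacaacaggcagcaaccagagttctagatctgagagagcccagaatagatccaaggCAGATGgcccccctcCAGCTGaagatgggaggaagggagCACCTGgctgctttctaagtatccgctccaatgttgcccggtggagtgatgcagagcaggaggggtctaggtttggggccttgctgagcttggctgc
Klhdc2, chr12:69296431-69296680, plus strand: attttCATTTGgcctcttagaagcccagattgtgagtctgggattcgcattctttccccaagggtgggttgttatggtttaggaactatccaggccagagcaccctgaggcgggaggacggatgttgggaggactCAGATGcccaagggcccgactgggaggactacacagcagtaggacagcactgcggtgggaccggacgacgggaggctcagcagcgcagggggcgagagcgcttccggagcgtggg
Nrgn, chr9:37552905-37552995, minus strand: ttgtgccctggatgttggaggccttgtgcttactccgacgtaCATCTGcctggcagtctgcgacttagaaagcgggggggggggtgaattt
An E-box was present upstream of 8 of the 9 genes, against 66.2% of 32851 mouse promoters. TGTGGT was found at Tnni1 and Tsc22d1 (14.05% of all promoters), TATAAA at Igfbp4, Ecm1 and Tsc22d1 (12.4%), and TGANTCA at Ecm1 alone (6.75%). The NF-kB motif (7.25%), GCGTGGGCG (0.536%) and GCGGGGGCG (2.57%) were found at 0 of the 9 genes. Tnni1 and Tsc22d1 have more than 1 start in RefSeq, and a gene was counted when any of its starts held the motif.

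The libraries held 31381738 to 48291764 UMIs, and 3651 to 7231 cells per library passed the filters at a median of 4596 to 6833 UMIs per cell. Pairs of libraries shared 18 to 43 cell barcodes. Hivep3 itself was at 38.5 and 36.4 counts per 1000000 UMIs (CPM) in the C57BL/6 libraries and at 101 and 68.0 CPM in the Hivep3-/- libraries. Reads from the 5′ end do not show which exons a transcript holds, so this level does not check the genotype label. The study's text calls the C57BL/6 mice female, but only C57BL/6 replicate 1 had Xist at a high count (14609 UMIs). C57BL/6 replicate 2 and Hivep3-/- replicates 1 and 2 had 4, 25 and 3 Xist UMIs and 4120, 3568 and 4879 UMIs of 4 Y-linked genes. C57BL/6 replicate 1 therefore stood apart in sex, and values without it are given where they turned a direction or moved most.

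Cells were clustered with the 9 genes left out, and clusters were named from lists of marker genes. The C57BL/6 libraries held 352 and 119 stage 0-like cells and the Hivep3-/- libraries 371 and 405. The 4 clusters of cycling-like cells held 1439, 487, 258 and 416 cells in the same order. A further cluster, number 8, was left unnamed because no class had enough markers among its leading genes. Of its 10 leading genes 8 were among the 9 (all but Nrgn), together with Klrb1a, an NK receptor gene, and Lat2, an adaptor gene. It is the group by which the genes were picked, and it held 2.84% and 0.849% of the C57BL/6 cells and 5.63% and 8.76% of the Hivep3-/- cells. The word early fits it in part. Cluster 8 had stage 0 markers at a summed level of 1785 to 2299 CPM in C57BL/6 and 2416 to 3105 CPM in Hivep3-/- libraries, against 6578 to 8869 CPM in stage 0-like cells of all libraries. Its iNKT1 markers summed to 3005 to 4056 CPM in C57BL/6 and 5218 to 5291 CPM in Hivep3-/- libraries. In iNKT1-like cells of all libraries they summed to 11000 to 15350 CPM. Its iNKT2 markers summed to 1709 to 1915 CPM in C57BL/6 and 1016 to 1058 CPM in Hivep3-/- libraries. In iNKT2-like cells the sums were 2298 to 2401 CPM and 1679 to 1871 CPM in the same order. Its cycling markers summed to 296 to 399 CPM against 1775 to 2777 CPM in cycling-like cells.

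Cluster 8 also held cells with high doublet scores. Cells in the top 5% of doublet scores of their library made up 48.3% and 45.2% of it in the C57BL/6 libraries, and 15.1% and 13.7% of it in the Hivep3-/- libraries. The part of doublets in the levels of this cluster was not tested beyond removing these cells. Without them cluster 8 held 106 and 17 C57BL/6 cells and 219 and 314 Hivep3-/- cells of at least 2000 UMIs, and the C57BL/6 levels in it that moved are given with the genes. Muscle-type (myoid) cells occur in the thymus. Of a list of 7 muscle genes, 2 to 4 had any UMI, and they summed to 19.8 and 5.62 CPM in C57BL/6 and to 21.0 CPM in both Hivep3-/- libraries in cluster 8. In cycling-like cells the sums were 7.05 to 12.4 CPM against 16.2 to 26.2 CPM. Most of this was Ckm, muscle creatine kinase, with 26, 1, 52 and 57 UMIs in cluster 8, and Mylpf, while Myog, Myh3 and Des were at 0 there. The B cell marker Ms4a1 and the epithelial markers Krt5, Krt8, Psmb11 and Foxn1 were at 0 in cluster 8, but Epcam of the epithelial list was at 12 and 4 UMIs in C57BL/6 and 70 and 91 UMIs in Hivep3-/- libraries. Of the B cell list, Ighm was at 133, 27, 316 and 337 UMIs there and Cd79b at 3, 1, 22 and 22 UMIs. The 3 naive T cell genes summed to 87.1 to 310.5 CPM in C57BL/6 and 357.7 to 693.9 CPM in Hivep3-/- cells of cluster 8. The part of such cells in the levels of the 9 genes was not tested.

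In C57BL/6 cells the 9 genes did not share 1 stage. Mean levels of 6 genes (Klhdc2, Ecm1, Gcsam, Nrgn, Tsc22d1 and Atp1b1) were highest in stage 0-like cells, and those of Tnni1, Htra3 and Igfbp4 were highest in cluster 8. Klhdc2 and Atp1b1 in stage 0-like cells overlapped cluster 8 over the 2 libraries. Without the highest doublet scores the order turned for 2 of the 6, with C57BL/6 means of 122.1 CPM in cluster 8 against 87.5 CPM in stage 0-like cells for Atp1b1 and 61.7 CPM against 56.1 CPM for Ecm1. In Hivep3-/- cells 8 genes had their highest mean in cluster 8, and Nrgn alone was highest in stage 0-like cells. Igfbp4 in cluster 8 of these cells overlapped cycling-like cells, and Tsc22d1 overlapped stage 0-like cells. The genes were picked because they lead cluster 8, in which most cells were Hivep3-/-. A peak there in the knockout follows from that choice, so nothing is read from the order.

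Tnni1 marked cluster 8 and, in the knockout, the cycling cells. In cluster 8 it was at 66.5 and 61.8 CPM in C57BL/6 and 295.9 and 339.1 CPM in Hivep3-/- libraries, and without the highest doublet scores at 122.3 and 100.1 CPM against 341.6 and 389.7 CPM. In cycling-like cells it was at 10.1 and 13.5 CPM in C57BL/6 and 186.7 and 172.3 CPM in Hivep3-/- libraries, so the groups were far apart. In stage 0-like cells its 4 values lay between 11.3 and 22.7 CPM, with both Hivep3-/- libraries above both C57BL/6 libraries. The mature subsets had few UMIs of it: 2.37 to 4.42 CPM in iNKT2-like cells, 0 to 1.65 CPM in iNKT1-like cells and 0 of 610 iNKT17-like cells with a UMI, which allows a share of cells with a UMI of up to 0.492% and does not limit the share that express the gene.

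Htra3 was a near neighbour of Tnni1 in pattern, except that it was hardly present in stage 0-like cells, with 1 to 4 UMIs per library. In cluster 8 it was at 18.1 and 5.62 CPM in C57BL/6 and 115.5 and 117.1 CPM in Hivep3-/- libraries. In cycling-like cells it was at 2.95 and 2.56 CPM against 73.8 and 45.3 CPM. Its iNKT2-like levels were low, at 0.51 and 2.19 CPM against 5.30 and 5.26 CPM. In that class it passed the filter on low counts only through the Hivep3-/- libraries, so nothing is read from this order. Of its UMIs in the Hivep3-/- libraries, 53.5% and 59.4% came from cluster 8.

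Klhdc2 and Atp1b1 were broadly present and higher in the same cells. Klhdc2 was at 106.1 and 87.1 CPM in cluster 8 of C57BL/6 and 581.4 and 456.5 CPM in cluster 8 of Hivep3-/- libraries. In cycling-like cells it was at 60.1 and 56.0 CPM against 288.8 and 323.3 CPM, and in iNKT1-like cells at 36.1 and 33.0 CPM against 56.5 and 56.0 CPM. Atp1b1 in cluster 8 was at 89.6 and 73.1 CPM against 238.7 and 207.3 CPM. In stage 0-like cells Atp1b1 overlapped between genotypes, at 83.1 and 89.6 CPM against 87.9 and 73.8 CPM before scaling between libraries.

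The secreted proteins behaved unlike each other. Igfbp4 was already high in C57BL/6 cells, at 660 and 758.9 CPM in cluster 8 and 539 and 450.6 CPM in cycling-like cells, and the Hivep3-/- libraries reached 800.9 and 779.3 CPM and 715.2 and 802.8 CPM. In cluster 8 the order of genotypes rested on cells with high doublet scores, since without them Igfbp4 was at 1169 and 1273 CPM in C57BL/6 and 924 and 885 CPM in Hivep3-/- libraries. In stage 0-like cells the order was the opposite, with 391.8 and 438.8 CPM in C57BL/6 and 152.1 and 136.3 CPM in Hivep3-/- libraries. Ecm1 was at 46.7 and 39.4 CPM in cluster 8 of C57BL/6 and at 138.7 and 84.7 CPM in that of Hivep3-/- libraries. Its stage 0-like levels of 53.2, 57.5, 73.76 and 57.04 CPM overlapped.

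Gcsam and Tsc22d1 were both low in cycling C57BL/6 cells and differed at stage 0. Gcsam was at 48.6 and 30.8 CPM in stage 0-like cells of C57BL/6 and 12.5 and 12.2 CPM in those of Hivep3-/- mice, whereas its cycling-like levels were 1.502 and 2.024 CPM against 29.0 and 28.8 CPM. Its source in the libraries moved with that: stage 0-like cells gave 53.3% and 51.1% of Gcsam UMIs in C57BL/6 and 10.7% and 7.84% in Hivep3-/- libraries. Tsc22d1 was higher in the knockout at both points, with 57.9 and 40.1 CPM against 106.3 and 85.6 CPM in stage 0-like cells and 3.18 and 3.51 CPM against 27.8 and 38.2 CPM in cycling-like cells.

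Nrgn was the exception among the 9. It was by far highest in stage 0-like cells, at 1687 and 2132 CPM in C57BL/6 and 1249 and 1235 CPM in Hivep3-/- libraries. In cluster 8 it was at 802.8 and 1147 CPM in C57BL/6 and 391 and 404.7 CPM in Hivep3-/- libraries, the opposite order to the other genes. In cycling-like cells it was at 294.5 and 326.5 CPM against 336.1 and 462 CPM, which overlapped once libraries were scaled to each other.

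**Figure D1:**
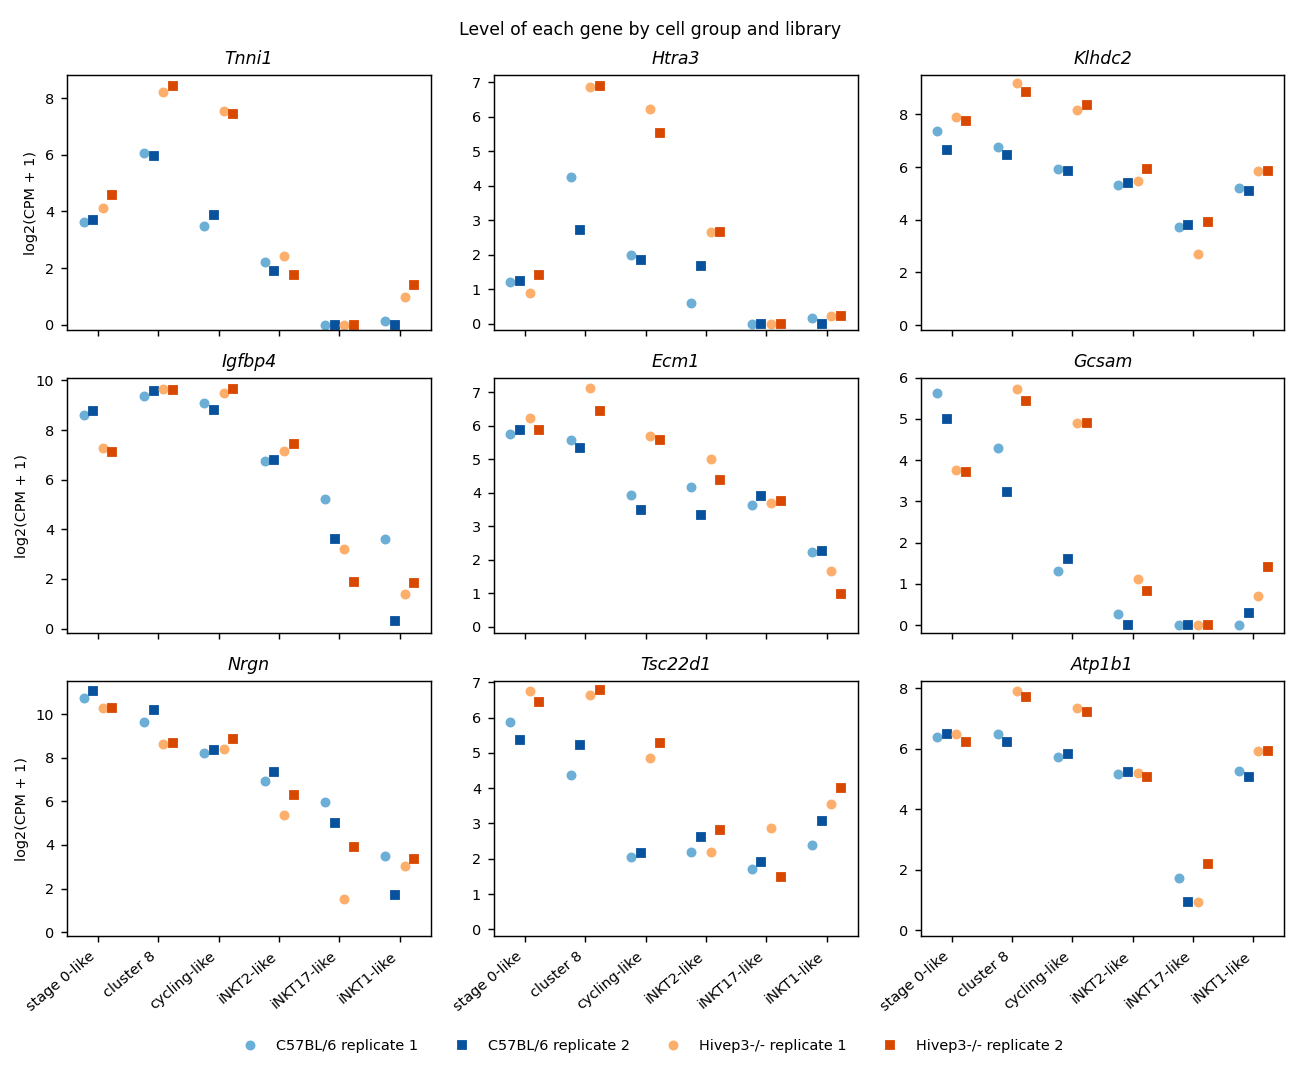
Level of each of the 9 genes (CPM of summed UMIs, log axis) in each library, by class of cells, with C57BL/6 and Hivep3-/- libraries as separate points. Tnni1, Htra3 and Gcsam were low in cycling-like cells of both C57BL/6 libraries and high in those of both Hivep3-/- libraries, and Nrgn was highest in stage 0-like cells of all 4 libraries.

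Within cluster 8 the mean of the Hivep3-/- libraries was 4.95-fold the C57BL/6 mean for Tnni1, 9.79-fold for Htra3, 5.37-fold for Klhdc2, 3.70-fold for Tsc22d1, 3.48-fold for Gcsam, 2.74-fold for Atp1b1 and 2.60-fold for Ecm1. For Igfbp4 it was 1.11-fold and for Nrgn 0.408-fold. These folds describe the cells by which the genes were picked, with 31 cells in C57BL/6 replicate 2, and have no test. Without the highest doublet scores the fold of Tnni1 was 3.29, since its C57BL/6 mean went from 64.2 to 111 CPM. The folds of Htra3, Gcsam, Tsc22d1 and Nrgn became 6.60, 2.06, 2.46 and 0.263, and Igfbp4 turned to 0.741-fold. Those of Klhdc2, Ecm1 and Atp1b1 became 5.05, 1.99 and 2.03. How many of all genes had the libraries of the genotypes apart in cluster 8 was not counted. No count of genes is therefore given for it, and nothing is read from these directions.

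In cycling-like cells the genotypes lay far apart for most of the 9 genes. A model of summed counts over all genes (edgeR, quasi-likelihood) gave log2 differences, Hivep3-/- minus C57BL/6 with n = 2 libraries each, of 4.23 ± 0.29 (SE) for Htra3, 3.92 ± 0.25 for Gcsam, 3.79 ± 0.19 for Tnni1 and 3.17 ± 0.26 for Tsc22d1. Those of Klhdc2, Ecm1 and Atp1b1 were 2.24 ± 0.14, 1.79 ± 0.21 and 1.37 ± 0.13, and those of Igfbp4 and Nrgn were 0.46 ± 0.14 and 0.21 ± 0.18. All 9 genes passed the filter on low counts, 7 had an adjusted p under 0.05 and were higher (0 lower), and 8 (all but Nrgn) had both Hivep3-/- libraries above both C57BL/6 libraries. Of the 10381 genes tested, 3.01% were called, 1.54% as higher and 1.46% as lower, and 25.1% had both Hivep3-/- libraries above. The choice of the genes used this contrast, so nothing is read from these counts. No median is given for this class, for the same reason. Gcsam passed the filter only with the help of the Hivep3-/- libraries. Without C57BL/6 replicate 1, the differences of the 9 genes ran from 0.12 for Nrgn and 0.58 for Igfbp4 to 3.65 for Gcsam and 4.33 for Htra3.

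The make-up of the cycling-like class differed between libraries. Early S phase cells (cluster 5) were 61.4% and 58.3% of it in C57BL/6 and 58.1% and 48.8% in Hivep3-/- libraries, so 1 library of each genotype was nearly equal. G2/M phase cells (cluster 10) were 23.8% and 23.4% against 13.2% and 16.8%. Cluster 11 overlapped between genotypes, at 13.5% and 15.4% against 14.7% and 29.6%. Summed iNKT1 markers in the class were 605 and 726 CPM in C57BL/6 and 3569 and 2026 CPM in Hivep3-/- libraries, summed stage 0 markers 1190 to 1394 CPM against 2431 to 2796 CPM, and 3 naive T cell genes 172 to 231 CPM against 296 to 619 CPM. Their part in the differences was not tested. Within cluster 5 alone, Tnni1 was at 7.07 and 8.14 CPM in C57BL/6 and 217.5 and 180.1 CPM in Hivep3-/- libraries, a 26.1-fold ratio of means. There Gcsam had a ratio of 28.3, Htra3 of 21.5 and Nrgn of 1.05. Nrgn overlapped between genotypes in clusters 5 and 10, and Igfbp4 did in cluster 11. The share of all genes that lay apart was not counted in single clusters, so no count of the 9 genes is given for them. The small cluster 13 made up 1.32% and 2.88% of the class in C57BL/6 and 13.95% and 4.81% in Hivep3-/- libraries. In cluster 13 Igfbp4 had means of 44.4 CPM in C57BL/6 and 4.48 CPM in Hivep3-/- libraries, Nrgn and Atp1b1 overlapped, and Htra3 had no UMI.

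At stage 0 the 9 genes went in both directions. Igfbp4 and Gcsam were lower in the knockout by the same model, with log2 differences of -1.66 ± 0.16 (SE) and -1.86 ± 0.30, and Nrgn was at -0.75 ± 0.18. Tsc22d1, Tnni1 and Klhdc2 were at 0.79 ± 0.21, 0.62 ± 0.37 and 0.62 ± 0.20, whereas Ecm1 (0.12 ± 0.20) and Atp1b1 (-0.22 ± 0.18) lay near 0. Of the 8 genes that passed the filter (not Htra3), 0 were called higher and 2 lower, beside 0.296% of 8783 genes called, 0.0455% as higher and 0.250% as lower. Values of both knockout libraries lay above those of C57BL/6 for 3 genes (1756 of all 8783 genes, 20%) and below for 4 (19.2%), after scaling. The median was -0.05 over the 8 genes and 0.02 over all genes tested.

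In iNKT2-like cells 8 of the 9 passed the filter (not Gcsam) and 0 were called, beside 0.214% of 9366 genes (0.0427% as higher and 0.171% as lower). Htra3 passed the filter only through the Hivep3-/- libraries, so its difference is drawn in the figure but not given here, and nothing is read from it. Ecm1 was at 0.80 ± 0.32 (log2, SE), Igfbp4 at 0.43 ± 0.16 and Nrgn at -1.32 ± 0.31. Nrgn levels were 121.8 and 160.1 CPM in C57BL/6 against 40.3 and 78.1 CPM in Hivep3-/- libraries. Without C57BL/6 replicate 1, Tnni1 and Tsc22d1 turned from -0.08 to 0.19 and from 0.11 to -0.20. The other 4 genes lay between -0.17 and 0.28. Beside Htra3, both Hivep3-/- libraries were above for Ecm1 and Igfbp4 (20.6% of all genes) and below for Nrgn and Atp1b1 (19.6%). No median is given for this class, since Htra3 could only pass the filter by being high in the knockout.

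In iNKT1-like cells, the most numerous class, 7 of the 9 passed the filter (not Htra3 or Gcsam) and 0 were called, beside 0.643% of 10576 genes. Tsc22d1, Atp1b1 and Klhdc2 were at 1.08 ± 0.32, 0.70 ± 0.15 and 0.63 ± 0.14 (log2, SE), and Ecm1 at -1.30 ± 0.39 on levels of 3.73 and 3.80 CPM against 2.15 and 0.99 CPM. Tnni1 had 1 and 0 UMIs in C57BL/6 and 17 and 20 UMIs in Hivep3-/- libraries, and it passed the filter only through the latter. Igfbp4, at -1.55 ± 1.02, rested on C57BL/6 replicate 1 (11.1 CPM against 0.24 CPM in replicate 2), and without that library its difference was 3.01. Nrgn, at 0.29 ± 0.54, moved to 1.79 without C57BL/6 replicate 1 and to -0.41 without C57BL/6 replicate 2. No median is given for this class, since Tnni1 could only pass the filter by being high in the knockout. Beside Tnni1, both Hivep3-/- libraries were above for Klhdc2, Tsc22d1 and Atp1b1 (19.1% of all genes) and below for Ecm1 (18.5%).

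**Figure D2:**
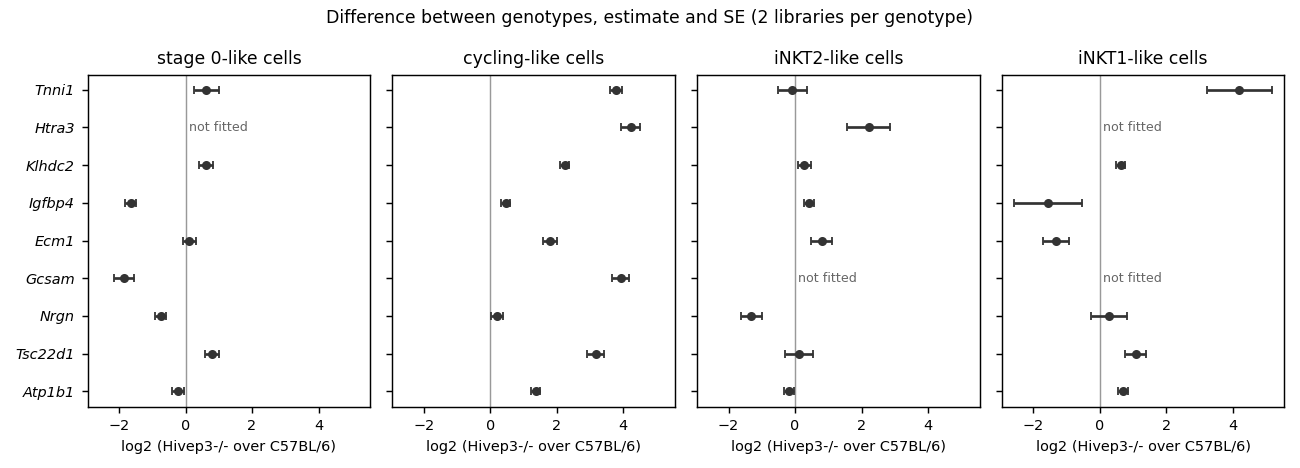
Log2 difference between genotypes (Hivep3-/- minus C57BL/6, 2 libraries each) of the 9 genes in 4 classes of cells; points are model estimates and bars 1 SE. In cycling-like cells all 9 estimates were above 0, from 0.21 for Nrgn to 4.23 for Htra3, and in stage 0-like cells Igfbp4, Gcsam and Nrgn were below 0. Htra3 in iNKT2-like and Tnni1 in iNKT1-like cells passed the filter only through the Hivep3-/- libraries, so nothing is read from their points.

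Cells differ in depth, so each cell was thinned to 2000 UMIs before genes were counted as present. This left out 502 and 91 cells of the C57BL/6 and 82 and 75 cells of the Hivep3-/- libraries. Intervals are 95% Wilson intervals and cover counting error only. Among cycling-like cells a Tnni1 UMI was found in 1.82% (1.24 to 2.65) and 2.06% (1.12 to 3.75) of C57BL/6 cells, and in 20.55% (16.03 to 25.96) and 21.45% (17.77 to 25.65) of Hivep3-/- cells. Shares for Htra3 were 0.21% (0.071 to 0.61) and 0.41% (0.11 to 1.49) against 11.1% (7.77 to 15.5) and 8.43% (6.13 to 11.5). Of iNKT1-like cells, 0, 0, 0.12 and 0.10% in the 4 libraries had a Tnni1 UMI. The part of free RNA in these shares was not tested. Without thinning, the cycling-like shares of Tnni1 were 6.39% and 9.86% against 33.7% and 42.1%.

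Igfbp4 at stage 0 differed in the share of positive cells as well as in level, and Nrgn did so less clearly. An Igfbp4 UMI was found in 15.5% (11.6 to 20.4) and 16.7% (10.8 to 24.8) of stage 0-like C57BL/6 cells and in 6.72% (4.56 to 9.81) and 7.74% (5.41 to 10.95) of Hivep3-/- cells. For Nrgn the shares were 88.4% (83.9 to 91.7) and 78.7% (70.1 to 85.4) against 70.9% (66.0 to 75.3) and 75.7% (71.0 to 79.8), and the intervals of C57BL/6 replicate 2 and both Hivep3-/- libraries overlapped. In iNKT1-like cells, 1.81, 0.061, 0.48 and 0.25% of cells had an Igfbp4 UMI and 1.60, 0.37, 1.24 and 1.11% a Nrgn UMI.

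Some cells had several of the 9 genes. Such shares also rise when each gene is found in more cells, and no expected share was computed. At 2000 UMIs, 3 or more of them were present in 3.23% (2.83 to 3.67) and 1.49% (1.14 to 1.94) of all C57BL/6 cells and in 7.04% (6.33 to 7.83) and 11.7% (10.8 to 12.7) of all Hivep3-/- cells. In cycling-like cells the shares were 5.87% and 6.79% against 35.2% and 42.9%, and in cluster 8 they were 26.3% and 22.6% against 56.98% and 57.69%. Without the highest doublet scores the cluster 8 shares were 43.4% and 29.4% against 62.1% and 61.8%. Stage 0-like cells had 20.9% and 10.2% against 17.9% and 18.0%, which overlapped. In iNKT1-like cells the share was at most 0.41% in all 4 libraries. The most genes in 1 cell was 8, in Hivep3-/- cells.

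Cells with 3 or more of the genes came from different classes in different libraries. In C57BL/6 libraries 38.7% and 62.3% of them were cycling-like, 24.9% and 20.8% stage 0-like and 24.9% and 13.2% in cluster 8. In Hivep3-/- libraries 46.2% and 43.8% were in cluster 8, 28.0% and 37.2% cycling-like and 20.1% and 13.6% stage 0-like.

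**Figure D3:**
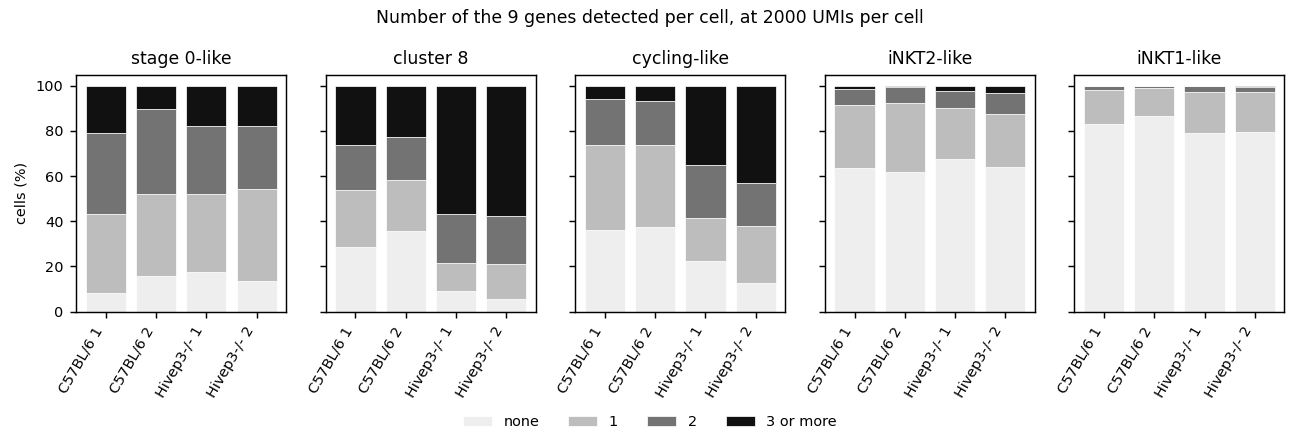
Share of cells (percent) with a given number of the 9 genes present at 2000 UMIs per cell, by library and class. In cycling-like cells 3 or more genes were present in 35.2% and 42.9% of Hivep3-/- cells and in 5.87% and 6.79% of C57BL/6 cells.

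Within cycling-like cells of the knockout, Klhdc2 was more common in cells with Tnni1 than in cells without. Of cells with a Tnni1 UMI, 33 of 52 (63.5%, 49.9 to 75.2) in replicate 1 and 59 of 89 (66.3%, 56.0 to 75.3) in replicate 2 also had Klhdc2. Of cells without Tnni1, the shares were 27.4% (21.7 to 33.9) and 36.5% (31.5 to 41.9). Htra3 was found in 15.4% against 9.95% of cells in replicate 1 and in 19.1% against 5.52% in replicate 2, and Atp1b1 in 42.3% against 20.4% and 30.3% against 23.3%. Ecm1 and Tsc22d1 went opposite ways in the replicates, with Ecm1 in 5.77% against 10.95% and 12.4% against 8.28%.

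In C57BL/6 libraries few cells had a Tnni1 UMI, 26 and 10 of the cycling-like cells and 19 and 3 in cluster 8. Klhdc2 was found in 11.5% (4.00 to 29.0) of the 26 cells against 10.3% (8.83 to 12.0) of cells without Tnni1, and in 30.0% (10.8 to 60.3) of the 10 cells against 10.3% (7.88 to 13.4), so its intervals overlapped in both libraries. Nrgn had intervals that did not overlap in either library, in 53.9% (35.5 to 71.2) against 23.3% (21.1 to 25.5) of cycling-like cells in replicate 1 and in 90.0% (59.6 to 98.2) against 24.6% (20.9 to 28.6) in replicate 2. In cluster 8 of C57BL/6 replicate 1, Nrgn was found in 84.2% against 47.3% and Klhdc2 in 26.3% against 19.4% of cells.

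Cluster 8 of the knockout gave much the same picture for Klhdc2, with 77.0% against 50.9% of cells in replicate 1 and 62.6% against 46.8% in replicate 2. Ecm1 was found here in 31.0% against 14.6% and 19.9% against 13.3% of cells with and without Tnni1. Igfbp4 was at 44.8% (34.8 to 55.3) against 49.1% (41.7 to 56.6) and 55.0% (46.4 to 63.2) against 54.5% (48.1 to 60.8), with overlapping intervals in both replicates. Over the 36 pairs of the 9 genes, the second gene was more common in cells with the first in both Hivep3-/- libraries for 27 pairs in cycling-like cells and 26 in cluster 8, and less common in both for 1 pair in each. Without the highest doublet scores these numbers were 26 and 21 pairs more common and 1 and 6 less common. At 1000 UMIs per cell they were 23 and 20 pairs more common and 4 and 3 less common. Pairs of other genes were not counted, so nothing is read from these numbers. These shares are descriptions: the genes of a pair share a cell's depth up to the thinning, its place in the cell cycle and the cluster in which they were picked.

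**Figure D4:**
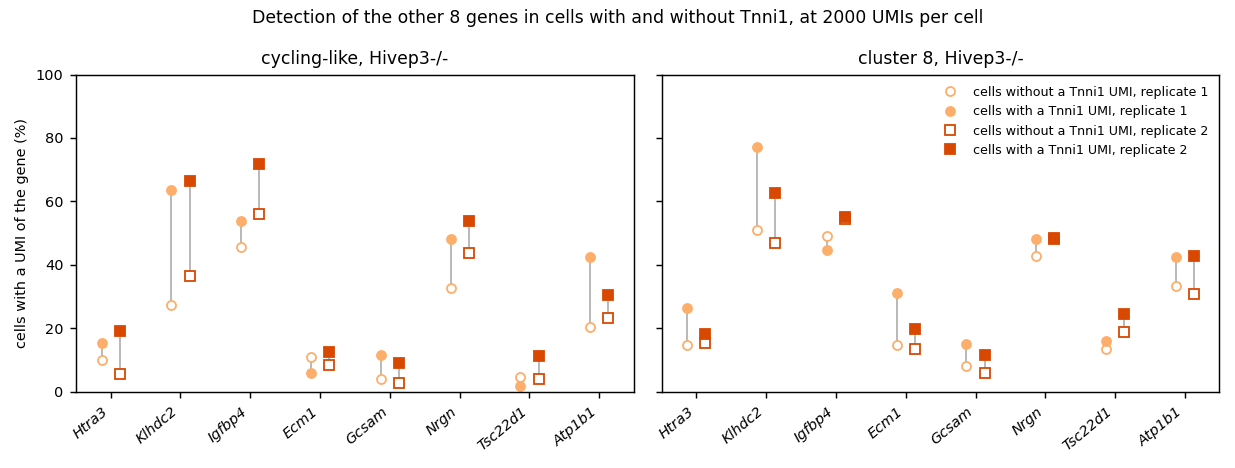
Share of cells (percent) with each other gene among cells with and without a Tnni1 UMI, at 2000 UMIs per cell, in cycling-like cells and cluster 8 of the Hivep3-/- libraries. Klhdc2 had the widest gap in cycling-like cells, 63.5% against 27.4% and 66.3% against 36.5%.

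Cells of cluster 8 with 3 or more of the genes also carried other transcripts at higher levels than cells of the cluster with none. The comparison had 54 and 59 cells in C57BL/6 replicate 1, 7 and 11 in replicate 2, 147 and 23 in Hivep3-/- replicate 1 and 210 and 20 in replicate 2. Ranked by the lowest log2 ratio over the 4 libraries on log2(CPM + 10), the first 10 genes were Gm4208, Tspan6, Gm5914, Npepps, Plac8, B630019A10Rik, Pdcd1, Cfap20, Wdr92 and Susd2. Pdcd1, the inhibitory receptor PD-1, had a mean of 550.0 CPM against 63.3 CPM, and Plac8, on the list of iNKT2 markers, 515 CPM against 101 CPM. In cells with none, the mean was 0 CPM for Gm4208, Tspan6, Gm5914, Npepps, Wdr92 and Susd2. In the 7 and 11 cells of C57BL/6 replicate 2, Tspan6, Gm5914, Npepps, B630019A10Rik, Cfap20 and Susd2 shared a log2 ratio of 3.03. That shared value comes from very few UMIs, so the place of these genes in the ranking rests on counts near the floor. The number of genes present divides cells by what was measured in them, so these values are a description.

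Other genes shared the pattern of the 9 over classes and libraries. The mean z score of log2(CPM + 1) of the 9 genes was set against 5315 genes over 32 sums, 8 classes in 4 libraries that share their cells' library. The highest Pearson r was 0.94 for Sptbn1, a spectrin of the membrane skeleton. Gsn (gelsolin, which cuts actin filaments) followed at 0.90, then Tspan13, Tes and Gstt2 at 0.89, Rbpms and Cux1 at 0.88, B630019A10Rik and Zfp422 at 0.87 and Mfge8 at 0.86. For Tnni1 alone they were Sptbn1 (0.88), Csrp1 (0.82) and Rbpms (0.81), and for Htra3 Sptbn1 (0.84), Cotl1 (0.80) and Klrb1a (0.77). Among the 9 genes r ran from 0.47 for Ecm1 with Atp1b1 to 0.91 for Klhdc2 with Atp1b1, and was 0.90 for Tnni1 with Htra3.

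The families and pathways of the 9 genes were looked up in the same tests. Of 71 other genes of their families and pathways, 38, 43, 41 and 43 were tested in stage 0-like, cycling-like, iNKT2-like and iNKT1-like cells. In cycling-like cells 1 rose and 1 fell, in iNKT2-like cells 1 fell, and in the other classes 0 were called, beside 3.01% of all genes called in cycling-like, 0.214% in iNKT2-like, 0.296% in stage 0-like and 0.643% in iNKT1-like cells. Igfbp7, another secreted binding protein of the insulin-like growth factor system, had 67 and 30 UMIs in cycling-like cells of C57BL/6 and 0 and 1 UMI in those of Hivep3-/- libraries (edgeR adjusted p = 0.0166). The ratio of summed levels was 0.029, with an exact counting interval of 0.00071 to 0.16. In iNKT2-like cells Igfbp7 went from 17.4 and 21.1 CPM to 0.28 and 0 CPM (edgeR adjusted p = 0.0134), with a ratio of 0.0078 and a counting interval of 0.00020 to 0.044. Smad7, the inhibitory Smad of TGF-beta signalling, rose by 1.24 ± 0.23 in cycling-like cells (edgeR adjusted p = 0.0415), from 12.97 and 9.06 CPM to 28.3 and 24.8 CPM. This call was lost when any of the 4 libraries was left out (edgeR adjusted p = 0.0508 to 0.126).

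No troponin, HtrA protease or cullin-2 relative was called. Tnnt1 was the only other troponin gene with enough counts, and its log2 difference in cycling-like cells was -0.30 (edgeR adjusted p = 0.623). Htra2, the only other HtrA protease tested, was at 0.73 (edgeR adjusted p = 0.121), and of the 8 genes of C-degron receptors and the cullin-2 ligase tested beside Klhdc2, 0 were called. Tsc22d3, the glucocorticoid-induced relative of Tsc22d1, was at 0.99 in cycling-like cells (edgeR adjusted p = 0.078).

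The chromosome neighbours of the 9 genes, the 2 nearest protein-coding genes on each side, counted 36 genes, of which 20 to 24 were tested per class. Only Serp2, which lies 25047 bp from Tsc22d1 and encodes a stress-associated protein of the endoplasmic reticulum, was called, which is 1 of 24 neighbours tested in cycling-like cells beside 3.01% of all genes. It rose by 1.95 ± 0.24 (log2, SE; edgeR adjusted p = 0.0121) in cycling-like cells, from 9.80 and 10.1 CPM in C57BL/6 to 30.2 and 45.8 CPM in Hivep3-/- libraries. The call held under all 11 alternative settings (adjusted p of edgeR or DESeq2 from 3.457e-14 to 0.0281). Nemf and Nme7, which overlap Klhdc2 and Atp1b1 on the other strand, had log2 differences of -0.15 and -0.09 in cycling-like cells (edgeR adjusted p = 0.686 and 0.893).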

How the data were processed

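The deposited matrices gave raw, unnormalized UMI counts; the submitters' processing notes name Cell Ranger 3.1.0, Seurat 3.1.4 and mm10. The study's filters were applied (500 to 4100 genes, 1000 UMIs or more, mitochondrial share under 6%). They were clustered with Seurat 5.3.0 in R 4.3.3 (2000 variable genes, 30 principal components, mutual nearest neighbour merging over 20 neighbours with RANN 2.6.2, Louvain resolution 0.8). Variable genes excluded the 9 genes, Hivep3, 26 genes the study names, sex-linked genes and T cell receptor segments. Names ending in "-like" came from marker lists through a scoring rule set after the data were seen. Cluster 3 (12.6, 16.9, 8.13 and 6.72% of the cells of C57BL/6 replicates 1 and 2 and Hivep3-/- replicates 1 and 2), cluster 8 and the shallow cluster 12 (92, 5, 16 and 3 cells) stayed unnamed. The study's own cluster names were not used, which can make these classes differ from it. Scrublet (scanpy 1.11.5) marked only 1, 4, 1 and 4 cells, so no doublet was removed, and removal of the top 5% of scores (362, 183, 230 and 209 cells) was an alternative.

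Levels are CPM of UMIs summed over the cells of a class and library. Sums were fitted in edgeR 4.0.16 (filterByExpr, TMM scaling, two-sided quasi-likelihood test, Benjamini-Hochberg adjusted p under 0.05 called), after the script was tested on simulated data. The replicates were separate mice, 2 per genotype, and the precision is limited by that number. The members and lists were chosen with earlier results of these data known. Genes named were the 9, Hivep3, relatives and neighbours with an adjusted p under 0.05, the 10 genes most like the 9 and the 3 most like Tnni1 and Htra3 (mean of at least 20 CPM), and the 10 genes with the largest lowest ratio between cells with 3 or more of the 9 and none. Relatives singled out otherwise were chosen after their values were seen. The counting used here is not stated in the sources to keep overlapping genes on opposite strands apart. Alternatives were RLE size factors, DESeq2 1.42.0, no low-count filter, a replicate block, each library left out, resolution 1.2, clustering with the 9 genes, doublet removal, other thinning depths and a pseudocount of 10.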

Additional observations from a re-analysis of the deposited data

Results flagged for a closer look

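Each of the following genes had all Hivep3-/- libraries on one side of all C57BL/6 libraries in one class of cells and on the other side in another class. The difference between classes was not tested, and all log2 values are Hivep3-/- minus C57BL/6 after scaling of libraries. How many of all genes did so was not counted. Within single classes, 18.5% to 25.1% of all genes had the Hivep3-/- libraries on a given side. Cycling-like cells were on the higher side for each gene, and that contrast was used in choosing the genes. Gcsam passed the filter there only with the help of the Hivep3-/- libraries. Nothing is read from these directions. Igfbp4, the secreted binding protein of insulin-like growth factors, was at 0.46 in cycling-like and 0.43 in iNKT2-like cells and at -1.66 in stage 0-like cells. Gcsam, the signalling adaptor, was at 3.92 in cycling-like and -1.86 in stage 0-like cells. Ecm1, the secreted matrix protein, was at 1.79 in cycling-like and 0.80 in iNKT2-like cells and at -1.30 in iNKT1-like cells, where its levels were under 4 CPM. Atp1b1, the pump subunit, was at 1.37 in cycling-like and 0.70 in iNKT1-like cells, and at -0.22 in stage 0-like and -0.17 in iNKT2-like cells. Its stage 0-like values overlapped before scaling, and its iNKT2-like value turned to 0.06 at the finer cluster resolution.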

How the results depend on the processing

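Of 32 log2 differences of the 9 genes, 31 had a value under all 11 alternatives and 23 of these kept their sign. Tnni1 in iNKT1-like cells had a value under 7 and kept its sign. Like Htra3 in iNKT2-like and Gcsam in cycling-like cells, it passed the filter only through the Hivep3-/- libraries. The filter favours that sign, so nothing is read from the kept signs of these genes there. The signs that changed were those of Ecm1 at stage 0 and Nrgn in cycling-like cells (-0.10 without Hivep3-/- replicate 2). In iNKT2-like cells they were those of Tnni1, Klhdc2, Tsc22d1 and Atp1b1, and in iNKT1-like cells those of Igfbp4 and Nrgn. Tnni1 in cycling-like cells ranged from 3.56 to 3.99 and Htra3 from 3.443 to 4.501. The number of genes called over all genes moved more. In stage 0-like cells it was 26, against 204 without a low-count filter, 49 when the 9 genes were kept for clustering, 17 without C57BL/6 replicate 2, 65 without Hivep3-/- replicate 1 and 136 without Hivep3-/- replicate 2 (range with a library left out, 17 to 136). In cycling-like cells it was 312, against 1117 without the filter, 473 at resolution 1.2 and 156 without C57BL/6 replicate 1 (range 156 to 289 with a library left out). In iNKT2-like cells it was 20, against 65 with DESeq2, 346 without the filter, 51 at resolution 1.2, 45 with the 9 genes kept, 53 and 103 without C57BL/6 replicates 1 and 2, and 13 and 33 without Hivep3-/- replicates 1 and 2. In iNKT1-like cells it was 68, against 143 with DESeq2, 437 without the filter, 43 without C57BL/6 replicate 1, and 134 and 205 without Hivep3-/- replicates 1 and 2. Leaving out a library left 1 in its group, which was assumed to vary like the others. The cause of these moves was not tested. With the replicate number as a block the counts were 142, 549, 15 and 47 in stage 0-like, cycling-like, iNKT2-like and iNKT1-like cells. The deviations of same-numbered libraries correlated at 0.11 to 0.16 over genes, but 2 pairs do not show that the numbers pair the mice. The share of cells with 3 or more of the 9 genes was 14.6, 10.35, 16.55 and 23.6% without thinning and 1.38, 0.63, 3.39 and 5.33% at 1000 UMIs (C57BL/6 replicates 1 and 2, then Hivep3-/- replicates 1 and 2). Depth limits what can be read from genes with few UMIs, such as Htra3 at stage 0.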
